A study of Saccharomyces cerevisiae with 4 samples.

Results

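The 10 genes described here belong to 2 linked pathways of the budding yeast Saccharomyces cerevisiae: 8 genes of purine synthesis (ADE1, ADE4, ADE5,7, ADE6, ADE8, ADE12, ADE13 and ADE17) and 2 of the glycine cleavage system (GCV1 and GCV2). They were picked by gene symbol, with earlier results of these data known, from the 5656 genes named for the array. Shares of the members given below are therefore shares of a set not chosen blind to these data. Of the 10 genes, 9 had a probe set assigned to them alone, 1 each. ADE5,7 encodes a single protein for a pair of separate early steps. No probe set was matched to it under that name, so the gene was not analysed here.

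The study compared 4 strains, each hybridised once: a ubp10 null mutant, a sir4 null mutant, a ubp10sir4 double null mutant and the wild type W303-1A, a haploid laboratory strain. Total RNA came from exponentially growing cells and was read on the Affymetrix Yeast Genome S98 Array. UBP10 encodes a deubiquitinating enzyme that acts on histone H2B, and SIR4 a subunit of the silencing complex of telomeres and silent mating cassettes. W303 strains are known to carry a nonsense allele of ADE2, a purine gene, and the labels give neither the full genotype nor the adenine content of the medium. Since each strain stands on 1 array, the differences carry neither error nor p-value, and precision is limited by how few arrays there are. In whole cultures, fewer cells expressing a gene and less RNA per cell cannot be told apart.

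De novo purine synthesis builds the purine ring step by step on phosphoribosyl pyrophosphate (PRPP), with glycine and folate-bound one-carbon units among the building blocks, and ends in inosine monophosphate (IMP). The glycine cleavage system of mitochondria breaks glycine down and passes one of its carbons to folate, so it feeds the same one-carbon pool. In yeast most ADE genes are activated by the transcription factors Bas1 and Pho2 when adenine is scarce, and the GCV genes respond to glycine.

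Values are probe set intensities on a linear scale, in the units of the deposited files. The noise had an SD of 2.22 units, and values under a floor of 6.67 units, 3 noise SDs, were raised to it. Between 2 arrays, a call of higher or lower needed a ratio of at least 2 and a brighter value of at least 13.3 units, 2 times the floor. Over genes that exceeded the floor on both arrays, the median log2 ratio was -0.04 for the ubp10 mutant and 0.49 for the sir4 null, each against wild type. It was 0.54 for the double mutant against wild type, 0.50 for the double mutant against the ubp10 mutant and 0.01 for the double mutant against the sir4 null. Ratios are therefore given as deposited and, where named so, relative to that median.

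The arrays were checked against their labels. UBP10 read 5.7 and 4.0 units in the ubp10 mutant and the double mutant, both under the floor, against 269.2 units in the sir4 null and 247.9 units in the wild type. SIR4 was dim on every array, at 20.7 units in the sir4 null, 15.5 in the double mutant, 4.9 in the ubp10 mutant and 10.8 in the wild type, so it was not lower on the arrays labelled as lacking it. The array of the sir4 null mutant is therefore called the sir4-labelled array, and all directions drawn from the sir4 genotype rest on the labels. That array also stood apart in its control probe sets. The 3′ end of ACT1, the actin gene, was 86.9-fold brighter than its 5′ end there, against 1.1- to 1.5-fold on the other 3 arrays. For SPT15 the factor was 18.7 there and 1.5 to 2.1 on the others. Since every analysed member had a single probe set, its values could not be compared along the transcript, and the part of this 5′ loss in the results below was not tested.

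**Figure D1:**
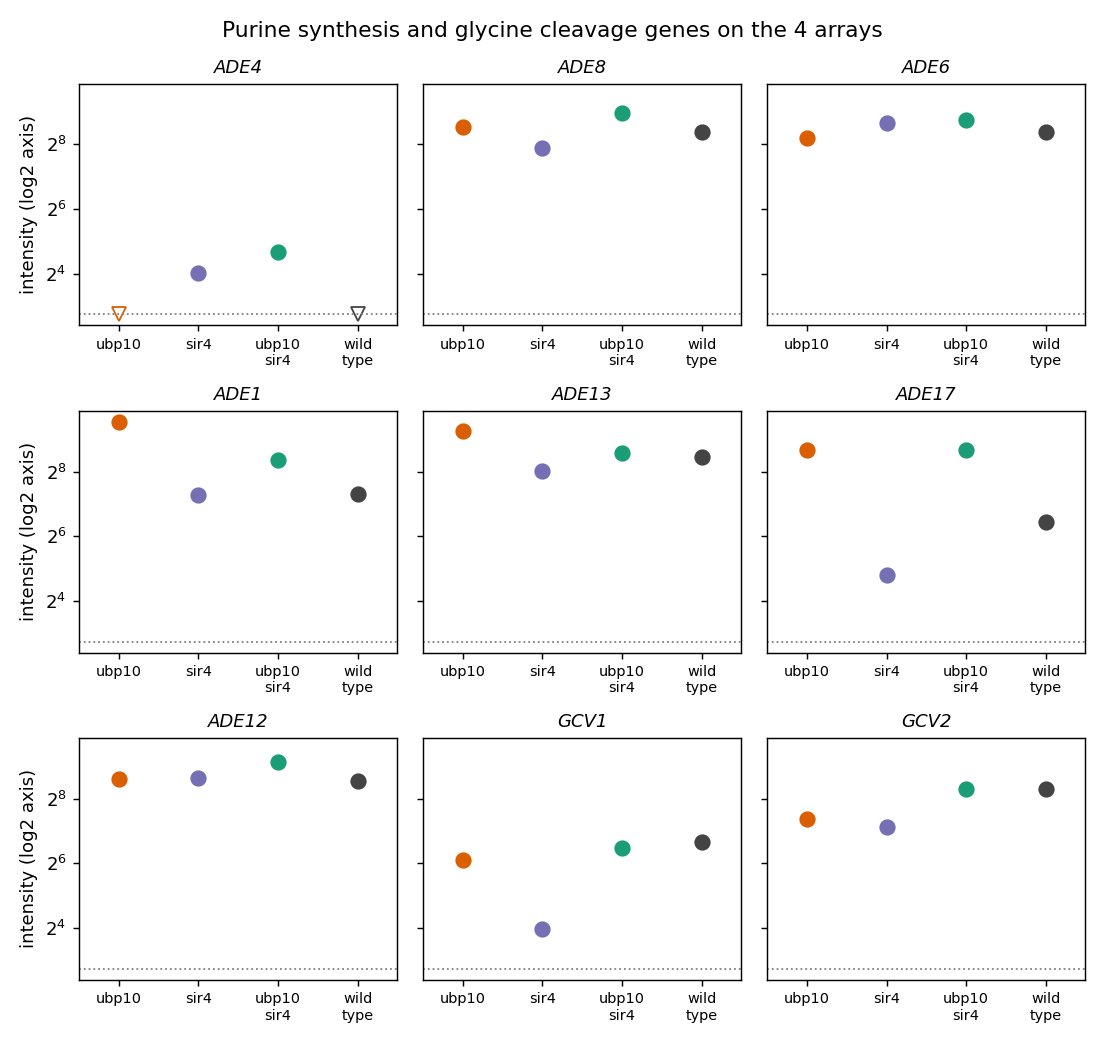
Intensity of each analysed gene (log2 axis, deposited units) on the 4 arrays, 1 point per array; the dotted line is the floor of 6.67 units and open triangles are values under it. ADE17 and ADE1 are brighter on both arrays without UBP10 than on both with it, and GCV1 is dimmest on the sir4-labelled array.

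ADE17 and ADE1 were higher on both arrays that lack UBP10, by 2-fold or more against the matching strain with UBP10. ADE17 encodes one of 2 isozymes that carry out the last steps to IMP. It read 402.8 units in the ubp10 mutant, 28.1 on the sir4-labelled array, 408.7 in the double mutant and 87.6 in the wild type. As deposited, both strains without UBP10 were thus nearly equal and above both strains with it. Relative to the median gene, the double mutant was 1.39-fold below the ubp10 mutant. ADE17 was 4.60-fold higher in the ubp10 mutant than in the wild type and 4.67-fold higher in the double mutant than in the wild type, or 3.20-fold relative to the median gene. Between the double mutant and the sir4-labelled array the ratio was 14.5, rank 2 among the 4969 genes above the floor on both arrays. The divisor of that ratio was the 28.1 units on the array with the 5′ loss, whose part was not tested.

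ADE1 encodes the ligase that makes SAICAR, the intermediate that receives its aspartate late in the pathway. Its intensities were 744.7 in the ubp10 mutant, 154.0 on the sir4-labelled array, 327.9 in the double mutant and 159.3 in the wild type. The ubp10 mutant was the highest, the double mutant lay between, and the 2 strains with UBP10 were close together as deposited. Relative to the median gene, the sir4-labelled array was 1.46-fold below the wild type. The ratio to wild type was 4.67 in the ubp10 mutant, rank 68 of 4758 genes, and 2.06 in the double mutant. The second of these was called as deposited but was 1.41-fold relative to the median gene, and it was under 2-fold with quantile normalization (log2 ratio 0.84) and with cyclic loess (0.86). Against the sir4-labelled array the double mutant was 2.13-fold higher.

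ADE13, whose lyase acts both on SAICAR and in the branch from IMP to AMP, had the same order with smaller steps. It read 604.8 units in the ubp10 mutant, 261.9 on the sir4-labelled array, 381.2 in the double mutant and 348.8 in the wild type. The ubp10 mutant was 1.73-fold above wild type and was not called. ADE8, the formyltransferase that adds the first folate-borne carbon, read 369.1 units in the ubp10 mutant, 237.0 on the sir4-labelled array, 497.9 in the double mutant and 330.7 in the wild type. It was called only in the double mutant against the sir4-labelled array, 2.10-fold higher.

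ADE1, ADE8, ADE13 and ADE17 had both arrays without UBP10 above both arrays with it. These 4 genes are 44.4% of the 9 analysed members, where 14.6% of all 5656 genes had this order. The opposite order was found in 0 members and in 5.06% of genes. With the medians of the 4 arrays made equal, ADE1 and ADE17 kept the order (22.2%, where 10% of genes had it and 13.9% the opposite one), and ADE8 and ADE13 did not.

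The same split by SIR4 turned with the scaling. As deposited, ADE4, ADE6 and ADE12 were higher on both arrays without SIR4, 33.3% of the members where 46.8% of genes were higher, and 0 members were lower where 7.76% of genes were. With equal array medians, ADE4 alone was higher (18.7% of genes) and ADE6, ADE8, ADE12, ADE13 and GCV1 were lower, 55.6% of the members where 26.9% of genes were lower.

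ADE6, ADE12 and ADE4 were flat or dim. ADE6 encodes formylglycinamidine ribonucleotide synthetase, an early step, and read 290.6 units in the ubp10 mutant, 408.4 on the sir4-labelled array, 428.7 in the double mutant and 335.4 in the wild type. ADE12 encodes adenylosuccinate synthase, which starts the branch to AMP, and read 394.9, 397.9 and 563.3 units in the ubp10 mutant, on the sir4-labelled array and in the double mutant, against 372.6 in the wild type. Neither was called in any of the 5 comparisons, and relative to the median gene their ratios ran from -0.40 to 0.50 on the log2 scale.

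ADE4 encodes the amidotransferase of the first committed step. Its probe set lay under the floor in the ubp10 mutant (5.1 units) and in the wild type (3.6 units), and read 16.2 units on the sir4-labelled array and 25.2 in the double mutant. The double mutant was at least 3.78-fold above both the ubp10 mutant and the wild type, or at least 2.67- and 2.59-fold relative to the median gene. The sir4-labelled array was at least 2.43-fold above wild type, or at least 1.72-fold relative to the median gene, which is not a call. All 4 values were under 4 times the floor.

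GCV1 and GCV2 were called only where the sir4-labelled array entered the ratio. GCV1 encodes the aminomethyltransferase (T protein) of glycine cleavage, and read 68.2 units in the ubp10 mutant, 15.6 on the sir4-labelled array, 89.6 in the double mutant and 100.9 in the wild type. GCV2 encodes the glycine decarboxylase (P protein), and read 167.4 units in the ubp10 mutant, 139.0 on the sir4-labelled array, 315.1 in the double mutant and 318.4 in the wild type. Both genes were lowest on the sir4-labelled array, next in the ubp10 mutant, and within 1.13-fold of wild type in the double mutant as deposited, or 1.64- and 1.47-fold lower relative to the median gene.

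Against wild type, GCV1 was 6.47-fold and GCV2 2.29-fold lower on the sir4-labelled array, or 9.10- and 3.22-fold relative to the median gene. In the ubp10 mutant GCV1 was 1.48-fold and GCV2 1.90-fold below wild type, and neither was called. The double mutant exceeded the sir4-labelled array 5.74-fold for GCV1 and 2.27-fold for GCV2. In the 3 comparisons that leave out the array with the 5′ loss, their ratios stayed under 2-fold as deposited and relative to the median gene.

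**Figure D2:**
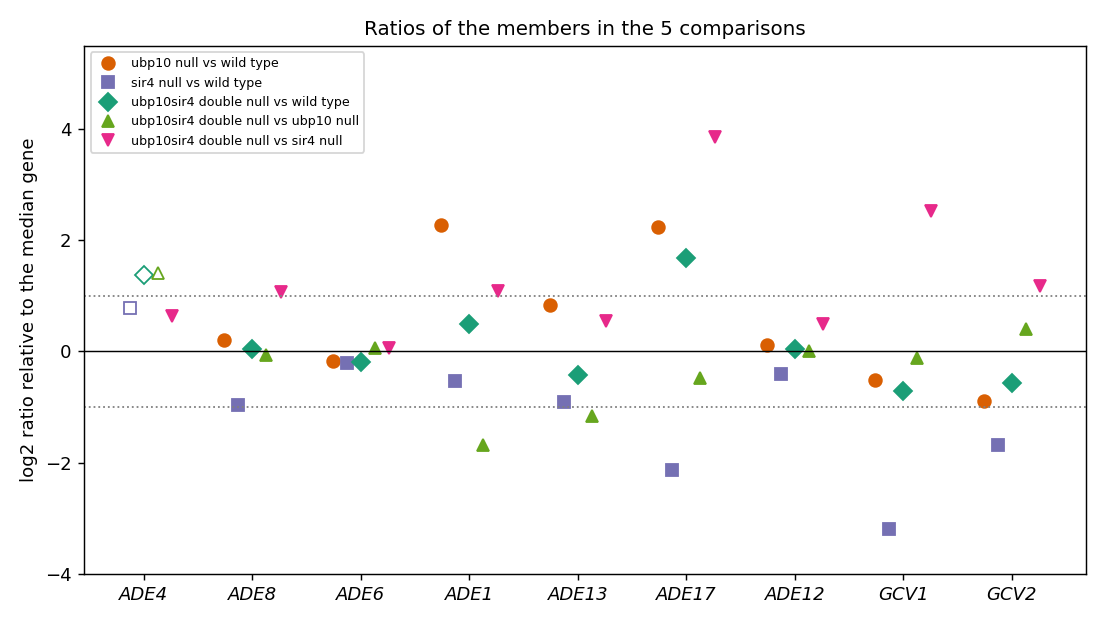
Log2 ratio of each analysed gene in the 5 comparisons, relative to the median gene, with the first-named strain over the second (sir4 null is the array labelled so); dotted lines mark 2-fold, open symbols are bounds against a value at the floor, and ADE4 is not drawn where both arrays were at the floor. ADE17 reaches 3.86 in the double mutant against the sir4-labelled array and GCV1 reaches -3.19 on that array against wild type.

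Counted by comparison, loss of UBP10 alone gave 2 members called higher (ADE1 and ADE17) and 0 lower of 9. That is 22.2% higher, where 9.44% of all genes were called higher and 8.42% lower. With the median ratio set to 0 the same 2 were called, where 9.9% of genes were higher and 7.64% lower. The members' median log2 ratio was 0.08, and relative to the median gene it was 0.12, close to 0.04 for all genes, and the other 7 members were not called.

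On the sir4-labelled array, 3 members were lower than in the wild type (ADE17, GCV1 and GCV2) and 1 was higher (ADE4). These are 33.3% and 11.1% of the members, where 4.47% of all genes were called lower and 19.8% higher. With the median ratio set to 0 the members had 3 lower and 0 higher, where 9.65% of genes were lower and 6.03% higher. The members' median was -0.91 relative to the median gene, against -0.09 for all genes, and ADE8 and ADE13, at -0.97 and -0.91, were just short of 2-fold lower.

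In the double mutant, 3 members were higher than in the wild type (ADE1, ADE4 and ADE17) and 0 were lower, 33.3% higher where 18.6% of all genes were called higher and 2.07% lower. With the median ratio set to 0, ADE4 and ADE17 were called, where 4.3% of genes were higher and 6.63% lower. The members' median, 0.05 relative to the median gene, was near -0.07 for all genes. These 3 comparisons share the wild-type array.

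Loss of SIR4 where UBP10 was already missing was read from the double mutant against the ubp10 mutant. ADE4 was called higher and ADE1 lower, 11.1% of the members each, where 28.3% of all genes were called higher and 6.26% lower. As deposited, ADE1 was 2.27-fold lower in the double mutant than in the ubp10 mutant, and ADE17 differed 1.01-fold. Relative to the median gene, ADE1 was 3.21-fold and ADE17 1.39-fold lower in the double mutant. With the median ratio set to 0, ADE13 was lower as well, 2.24-fold, where 13.4% of genes were higher and 13.2% lower.

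Loss of UBP10 where SIR4 was already missing gave the most calls among the members. Against the sir4-labelled array, 5 of 9 were higher in the double mutant (ADE1, ADE8, ADE17, GCV1 and GCV2) and 0 were lower. That is 55.6%, where 7.94% of all genes were called higher and 3.11% lower (7.9% and 3.15% with the median ratio set to 0, which left the members' calls as they were). The members' median log2 ratio was 1.07, against -0.01 for all genes relative to the median gene. The same array with the 5′ loss is the divisor of every ratio in this comparison.

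The response to UBP10 loss could be set side by side in the 2 SIR4 states, since these 2 ratios share no array. Relative to the median gene, the log2 ratio of ADE17 was 3.86 without SIR4 and 2.24 with it, and that of ADE1 was 1.08 without SIR4 and 2.27 with it. ADE13 had 0.54 without SIR4 and 0.83 with it, ADE8 1.07 and 0.20, ADE12 0.50 and 0.12, and ADE6 0.06 and -0.17. GCV1 had 2.52 without SIR4 and -0.52 with it, and GCV2 1.18 and -0.89. ADE6, GCV1 and GCV2 thus had ratios of opposite sign in the 2 states, and the other 5 were positive in both. Of the 8 members above the floor on all 4 arrays, 5 had the same sign in both states, where 57.3% of 4642 genes did. The difference, without minus with SIR4, was 3.04 for GCV1, rank 17 among the positive differences of those 4642 genes, and 2.06 for GCV2, rank 100. With SIR4, the ratios of GCV1 and GCV2 were under 2-fold and not called. Every ratio without SIR4 is divided by the array with the 5′ loss, whose part was not tested.

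**Figure D3:**
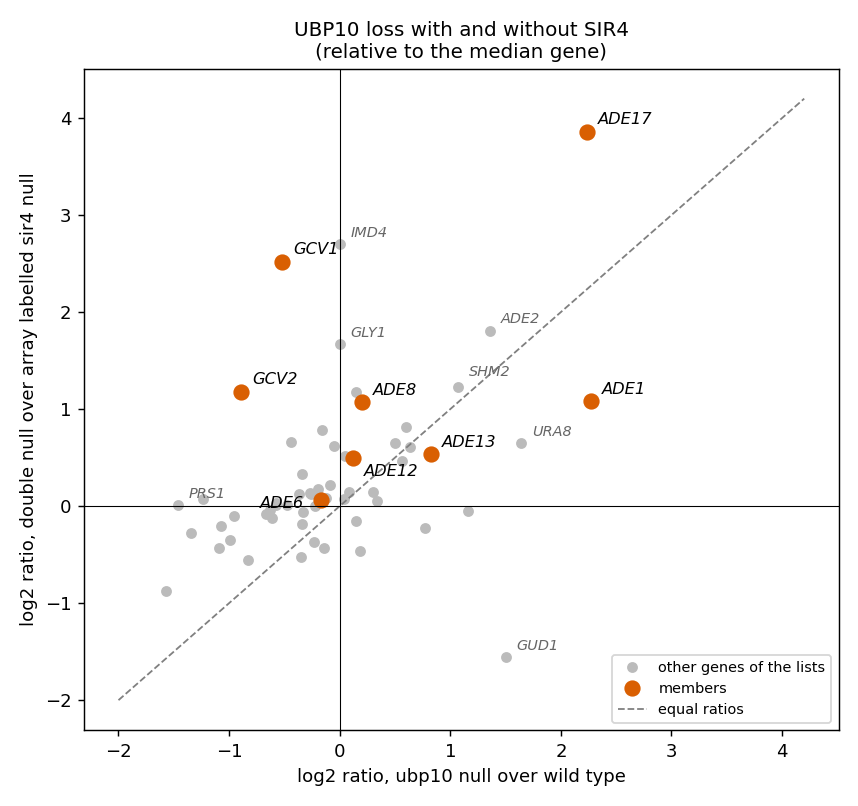
Log2 ratio of UBP10 loss without SIR4 (double mutant over the sir4-labelled array, vertical) against UBP10 loss with SIR4 (ubp10 mutant over wild type, horizontal), relative to the median gene, for members and for other genes of the lists above the floor on all arrays. ADE17, ADE1, ADE13 and ADE2 lie to the upper right, whereas GCV1 and GCV2 lie to the upper left.

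Other genes of purine nucleotide synthesis were read from a list of 12, all measured. ADE2, the carboxylase step just before ADE1, read 68.3 units in the ubp10 mutant, 38.1 on the sir4-labelled array, 133.7 in the double mutant and 27.3 in the wild type. Like ADE1 and ADE17 it was higher on both arrays without UBP10, 2.50-fold in the ubp10 mutant and 4.90-fold in the double mutant against wild type. ADE2 was 1 of the 12 with this order, 8.33% where 14.6% of all genes had it, and with equal array medians it was again 1 higher, while PRS1, PRS3 and PRS5 were lower (3 of 12, where 13.9% of genes were). ADE16, the other isozyme of the last steps, read 151.6 units in the ubp10 mutant, 154.3 on the sir4-labelled array, 237.5 in the double mutant and 160.9 in the wild type, and was not called in any comparison. In the ubp10 mutant against wild type, relative to the median gene, the log2 ratio was 2.24 for ADE17 and -0.05 for ADE16. Cross-hybridisation between these related genes was not tested.

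The 5 PRS genes, which encode subunits of the synthetase that makes PRPP, had log2 ratios of -1.46 to -0.58 in the ubp10 mutant against wild type, relative to the median gene. PRS1 read 165.7 units there, against 469.6 in the wild type, 2.83-fold lower, and PRS4 was 2.05-fold lower. In the double mutant against the ubp10 mutant 5 of 5 were called higher, of which PRS1 and PRS4 kept the call with the median ratio set to 0 (2.84- and 2.40-fold). As a share of the list of 12, these were 41.7% higher as deposited, where 28.3% of all genes were called higher. With the median ratio set to 0, 2 of the 12 were higher, where 13.4% of all genes were. In total the list had 1 gene higher and 2 lower in the ubp10 mutant, and 1 higher (ADE2) and 0 lower in the double mutant, both against wild type. These are 8.33% higher and 16.7% lower in the ubp10 mutant, where 9.44% and 8.42% of all genes were, and 8.33% higher in the double mutant, where 18.6% were, so the higher counts were not above the background.

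IMD4, an IMP dehydrogenase gene of the GTP branch, had 2 probe sets that did not move alike. One read 711.2 units in the ubp10 mutant, 734.5 on the sir4-labelled array, 672.1 in the double mutant and 837.5 in the wild type. The other read 392.2 units in the ubp10 mutant, 4.5 on the sir4-labelled array and 311.6 in the double mutant, against 351.2 in the wild type. Since the second lay under the floor on the sir4-labelled array, the log-scale mean of the 2 gives only a bound, at least 7.75-fold lower than in the wild type, and it rests on 1 probe set. A loss of this kind, seen by only 1 of 2 probe sets, could not be looked for in GCV1, GCV2 or ADE17.

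Among 12 other glycine, serine and folate genes, SHM2, the cytosolic serine hydroxymethyltransferase that makes glycine and one-carbon folate, was lowest on the sir4-labelled array and highest in the ubp10 mutant. It read 1095.2 units in the ubp10 mutant, 241.5 on the sir4-labelled array, 567.2 in the double mutant and 536.3 in the wild type. It was 2.04-fold higher in the ubp10 mutant than in the wild type, 2.22-fold lower on the sir4-labelled array than in the wild type, and 1.06-fold above wild type in the double mutant. SER3, a phosphoglycerate dehydrogenase of serine synthesis, was 2.17-fold higher in the ubp10 mutant. They were the 2 of 12 called higher there, 16.7% where 9.44% of all genes were. SHM2, MTD1, MIS1, SER1 and SER2, 5 of the 12, were higher on both arrays without UBP10 than on both with it. That is 41.7%, where 14.6% of all genes were. With equal array medians 3 of the 12 (MTD1, MIS1 and SER2) were, where 10% of genes were. With that scaling 2 of the 12 (16.7%) had the opposite order, where 13.9% of genes had it.

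The remaining subunits of glycine cleavage were GCV3, which encodes the H protein, and LPD1, the dihydrolipoamide dehydrogenase shared with other complexes. GCV3 read 826.1 units in the ubp10 mutant, 528.8 on the sir4-labelled array, 841.0 in the double mutant and 1150.6 in the wild type. It was 2.18-fold lower on the sir4-labelled array than in the wild type, as were GCV1 and GCV2 by more. LPD1 ran from 411.4 to 544.8 units over the 4 arrays and was not called. GLY1, the threonine aldolase that makes glycine, read 559.6 units in the ubp10 mutant, 97.3 on the sir4-labelled array, 310.4 in the double mutant and 575.2 in the wild type. The sir4-labelled array was 5.91-fold below wild type for GLY1, and the list had 3 of 12 lower there, where 4.47% of all genes were, and 1 higher (AGX1), 8.33% where 19.8% of genes were. With the median ratio set to 0 the 3 were still lower, where 9.65% of genes were, and AGX1, with a log2 ratio of 0.59, was not called. The 3 lower genes, GCV3, SHM2 and GLY1, had 1 probe set each. The part of the 5′ loss in their values was not tested.

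**Figure D4:**
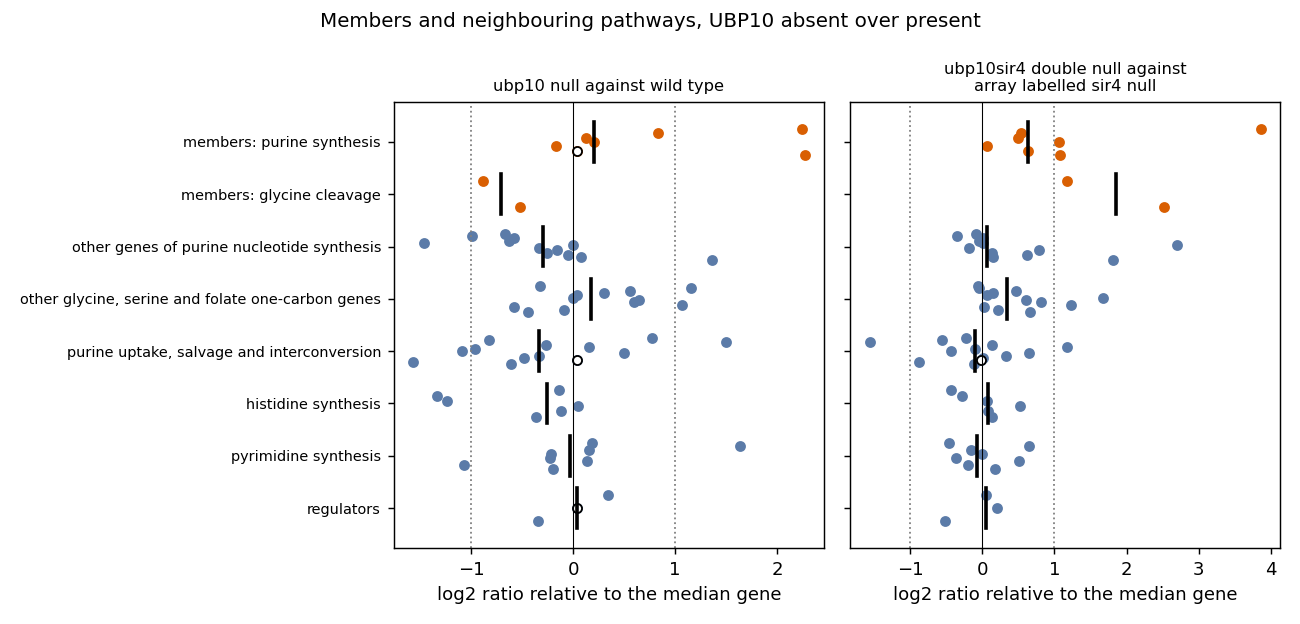
Log2 ratio relative to the median gene for the members (orange) and genes of neighbouring pathways (blue) in the 2 comparisons of UBP10 absent over present; black bars are list medians, open points have both arrays at the floor and dotted lines mark 2-fold. The glycine cleavage pair has a median of -0.71 in the ubp10 mutant against wild type and 1.85 in the double mutant against the sir4-labelled array.

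Purine uptake and salvage genes, which recover bases in place of making them, had 1 of 13 higher and 2 lower in the ubp10 mutant than in the wild type, 7.69% and 15.4% where 9.44% and 8.42% of all genes were called. GUD1, guanine deaminase, was 2.75-fold higher at a dim 26.4 units, FCY21, a purine permease homologue, was 3.04-fold lower and XPT1, a guanine and xanthine phosphoribosyltransferase, 2.19-fold lower. In the double mutant against the ubp10 mutant, FCY21, AAH1 (adenine deaminase) and XPT1 were 4.70-, 3.96- and 3.73-fold higher, and GUD1 was 3.52-fold lower. In that comparison 30.8% of the 13 genes were called higher and 7.69% lower, where 28.3% and 6.26% of all genes were.

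Histidine synthesis shares PRPP and the intermediate AICAR with the purine pathway. Of 6 genes, 0 were higher and 2 were lower in the ubp10 mutant than in the wild type, HIS6 2.60-fold and HIS5 2.44-fold, where 9.44% of all genes were higher and 8.42% lower. HIS4, a gene also activated by Bas1 and Pho2, read 1114.4 units in the ubp10 mutant and 1110.5 in the wild type. On the sir4-labelled array HIS4 read 599.6 units, and in the double mutant 861.5. Pyrimidine synthesis had 1 of 8 higher, the CTP synthase gene URA8 at 3.03-fold, and 1 lower, URA2 at 2.16-fold, or 12.5% each way, near those shares of all genes.

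The regulators were not called as deposited in any comparison. BAS1 read 33.3 units in the ubp10 mutant, 38.2 on the sir4-labelled array, 26.7 in the double mutant and 43.8 in the wild type, and relative to the median gene it was 2.39-fold lower in the double mutant than in the wild type. PHO2 lay at or near the floor on all 4 arrays, between -5.4 and 7.8 units. GCN4, the activator of amino acid synthesis, read 1527.2 units in the ubp10 mutant, 775.7 on the sir4-labelled array, 805.5 in the double mutant and 1241.2 in the wild type. Relative to the median gene it was 2.25-fold lower than in the wild type both on the sir4-labelled array and in the double mutant. Its translational control is not seen by an array.

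Likeness of profile was measured over the 4 arrays as the distance between log2 values centred on each gene's mean, among 4634 other genes above the floor throughout. Nearest to the median profile of the 6 ADE genes above the floor were HUA1, GPI2 and PIL1, at distances of 0.0711, 0.0954 and 0.102. The ADE genes themselves lay 0.362 (ADE8) to 2.49 (ADE17) from it. Nearest to the mean profile of GCV1 and GCV2 were PRE3, NOG2 and RIB3, at 0.0787, 0.239 and 0.276. GCV1 and GCV2 themselves each lay 0.704 from it, farther than these named genes. Both members were lowest on the sir4-labelled array, at 15.6 and 139.0 units. The part of that array's signal loss in their mean profile was not tested.

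Because UBP10 and SIR4 are known to act at telomeres, the place of the members in the order of open reading frames was also read from the RefSeq table. None of the 10 was among the 10 outermost genes of its chromosome arm (0 members). The nearest were ADE1, gene 18 of 26 from the end of its short arm, ADE4 (27 of 338) and ADE5,7 (30 of 250).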

How the data were processed

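Per the labels, the authors summarised each Affymetrix Yeast Genome S98 array with MAS 4.0, and the deposited intensity of a probe set is linear and can be below 0. Between 7.25% and 9.23% of non-control values were negative. No source used here states a scaling step, but the mean between the 2nd and 98th percentiles was 100.0 on all 4 arrays, so values were used as deposited. The 98th percentile was 1577 units in the ubp10 mutant, 1033 in the sir4 null, 991 in the double mutant and 1484 in the wild type.

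Names came from the platform annotation, updated by gene identifier to the RefSeq table. Of 9275 non-control probe sets 6504 had 1 gene, 328 several (not used) and 2443 were not listed. The noise SD was 1.4826 times the median size of the negative values. Probe sets of a gene were averaged on the log2 scale after flooring. Order over 2 against 2 arrays was also read with array medians made equal, a choice made after seeing the data. No additive model was fitted, since it would take the interaction of the deletions as error.

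All members were named, with UBP10, SIR4, ACT1, SPT15, the regulators, up to 4 called genes per list and comparison, and the 3 genes nearest each profile. Genes outside that rule (ADE16, LPD1, HIS4, MTD1, SER1 and SER2) were named after their values were seen. The members and lists were chosen with earlier results of these data known. The calls were checked on simulated data. Alternatives covered scaling, floor, ratio, brightness and the choice of probe sets. Python 3.11.15, numpy 2.4.6, pandas 2.3.3, R 4.3.3 and limma 3.58.1 were used. No sequences or coordinates were used.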

Additional observations from a re-analysis of the deposited data

Results flagged for a closer look

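GCV1 and GCV2 had ratios of opposite sign for the loss of UBP10 without and with SIR4, and for both genes the ratio with SIR4 was under 2-fold. Relative to the median gene, the log2 ratio of GCV1 was 2.52 in the double mutant against the sir4-labelled array and -0.52 in the ubp10 mutant against wild type, a difference of 3.04. For GCV2 these were 1.18 and -0.89, a difference of 2.06. GCV2 also differed in the loss of SIR4, with 0.41 in the double mutant against the ubp10 mutant and -1.69 on the sir4-labelled array against wild type, a difference of 2.10. With 1 array per strain none of these differences was tested. All 3 involve the array with the 5′ signal loss, whose part was not tested.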

How the results depend on the processing

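Of 477 gene values recomputed under other settings, 0 called ratios changed sign, 453 kept their call or lack of one and 24 did not. At a ratio of 1.5, the members had 1 lower in the ubp10 mutant against wild type (0 at a ratio of 2), 5 higher in the double mutant against wild type (3), and 2 higher and 2 lower in the double mutant against the ubp10 mutant (1 and 1). At a ratio of 3 there were 0 lower in the double mutant against the ubp10 mutant (1) and 2 higher in the double mutant against the sir4-labelled array (5). The single higher member of the sir4-labelled array against wild type, ADE4, was lost (0) with the median ratio set to 0, cyclic loess, the floor doubled and a ratio of 3. In the double mutant against the ubp10 mutant, 2 were lower with the median ratio set to 0 and 0 higher with the floor doubled. In the split of arrays by UBP10, 2 members kept the higher order with equal array medians (4). In the split by SIR4, equal array medians gave 1 higher and 5 lower (3 and 0), and quantile normalization and cyclic loess each gave 1 lower. Over all genes, the sir4-labelled array against wild type had 1120 calls higher and 253 lower. Centring on the median ratio made these 341 and 546, quantile normalization 423 and 360, and cyclic loess 251 and 484. The double mutant against wild type had 1051 and 117, then 243 and 375, 289 and 169, and 222 and 219 in the same order. The double mutant against the ubp10 mutant had 1598 and 354, then 756 and 749, 1006 and 508, and 705 and 671. Quantile normalization of the other 3 arrays, and the splits, were added after seeing the data, and the 3-array setting gave the same counts of members except 2 higher in place of 3 in the double mutant against wild type, without ADE1. Signal over background limits ADE4 and PHO2. No paired analysis was possible because each strain had 1 array, and for the same reason no replicate could be left out.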
